A study of Mus musculus with 6 samples.

Results

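Lymphatic endothelial cells line the vessels and sinuses that carry lymph into and through a lymph node, and 9 genes widely used to mark them were followed here: Lyve1, Stab1, Stab2, Prox1, Nr2f2, Flt4, Pdpn, Reln and Mmrn1. Their probes were found by matching the accession that the array design gives for each probe to RefSeq symbols. This gave 11 of 41006 probes, which measured 8 of the 9 genes among 12254 genes with a symbol, and Mmrn1 was not analysed here because no probe was named for it. Lyve1, Prox1 and Reln had 2 probes each, and each probe is given on its own. The array's probe names carry no position on a genome build, so none is given.

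The 6 arrays measured mesenteric lymph nodes of naive adult mice. There were 3 arrays of TB-TNF KO double nodes, from mice with TNF knocked out in T and B cells, and 3 of B-TNF KO nodes, from mice with TNF knocked out in B cells. B cells lacked TNF in both groups, so the genotypes differ by the knockout in T cells. Sex and the day of feature extraction also differ between the groups, as given below. There was no wild-type sample, and how each knockout was limited to these cells is not given in the sources used here. Each array held RNA from the pooled nodes of 3 mice in the Cy3 channel, called the sample channel. The Cy5 channel held the same reference on every array, a pool of RNA from 11 mouse cell lines. Per the labels all pools were from males except TB-TNF KO double pool 2, which was female.

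Lymphatic identity is set by the transcription factor Prox1, whose gene is switched on with the help of the nuclear receptor Nr2f2, and lymphatic growth runs through the receptor Flt4, which binds VEGF-C and VEGF-D. In lymph nodes the lymphatic endothelium forms the sinuses, where hyaluronan and scavenger receptors such as Lyve1, Stab1 and Stab2 are found. Several of these genes are not restricted to these cells: tissue macrophages can also carry Lyve1 and Stab1, reticular fibroblasts carry Pdpn, and Nr2f2 is a gene of veins and stroma too. All 11 probes were well above background in both channels on all 6 arrays, and 0 were saturated.

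In brief, 1 of the 11 probes passed the threshold in the log2 ratio of sample over reference: the brighter of the 2 Lyve1 probes, whose ratio fell by 1.22 in TB-TNF KO double nodes. In its sample channel alone the difference was -0.41 and not called (adjusted p = 0.0708), and its reference channel, with the same RNA on every array, was 0.54 higher on the TB-TNF KO double arrays. The other Lyve1 probe differed by -0.03. Nr2f2 passed the threshold in the sample channel taken alone, where it fell by 0.64. The test was limma over 40791 probes with a Benjamini-Hochberg adjusted p under 0.05. It called 6 probes lower, 0.0147% of those tested, and 0 higher. At an unadjusted p under 0.05 it had 4552 lower (11.2%) and 2049 higher (5.02%).

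Some facts about the arrays bear on every value below. Between TB-TNF KO double arrays 1 and 2, the SD over probes of the sample-channel difference was 0.95 times that of the reference channel, where the RNA is the same, against 1.06 to 1.59 times for the other pairs of arrays. The lowest of the other pairs, at 1.06, was TB-TNF KO double array 1 with B-TNF KO array 2, a pair across the groups. Because of their ratio, TB-TNF KO double arrays 1 and 2 were averaged to 1 sample, so n was 2 against 3. The Y-linked gene Eif2s3y had log2 ratios of -2.81 and -2.84 on those arrays and of 0.59 to 1.83 on the other 4, although pool 1 is labelled male. Sex was therefore not balanced between the groups, and its part in the differences was not tested. Each group's arrays were feature-extracted on 1 day that no array of the other group shared, so day and group cannot be told apart. The median intensity of the reference channel was 315 to 362 on TB-TNF KO double arrays and 280 to 282 on B-TNF KO arrays, and that of the sample channel was 143 to 166 on TB-TNF KO double arrays and 158 to 203 on B-TNF KO arrays. The brighter Tnf probe had log2 ratios of -0.66, -0.63 and -0.84 in TB-TNF KO double nodes, against 0.19, 0.36 and 0.49 in B-TNF KO nodes. The dimmer Tnf probe was lower by a smaller amount (TB-TNF KO double minus B-TNF KO -0.26), and the position of the Tnf probes relative to the deletion is not given in the sources used here.

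Lyve1 encodes a hyaluronan receptor of the lymphatic vessel wall, and its 2 probes gave different answers. They are shown because the result for this gene turns on which one is read. The first 30 of the 60 bases of each, from the scanner files, read 5′ to 3′ as follows.
Lyve1, brighter probe: tttgtgtgcctttaacaaatacattattag
Lyve1, dimmer probe: cacccaaaactacggtgcgatgcttagaag
The brighter probe is richer in A and T (35% G and C over the 60 bases, against 46.7% in the dimmer probe). The brighter probe had a mean log2 sample signal of 11.85 and the dimmer one 8.29. Levels of different probes cannot be compared as amounts of RNA, and no transcript sequence was used to place either probe in the gene.

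On the brighter Lyve1 probe the log2 ratios were 3.33, 3.13 and 3.19 on the TB-TNF KO double arrays, against 4.38, 4.44 and 4.47 on the B-TNF KO arrays. All TB-TNF KO double arrays lay below all B-TNF KO arrays, and the gap between the groups was several times the spread within them. The means were 3.21 ± 0.02 (SD, n = 2) in TB-TNF KO double nodes and 4.43 ± 0.05 (SD, n = 3) in B-TNF KO nodes. The difference was -1.22 ± 0.05 (SE, 95% interval -1.34 to -1.10), which is 0.429 times the ratio of B-TNF KO nodes, with a limma adjusted p of 0.00939. In whole nodes, fewer cells of a type and less RNA per cell cannot be told apart.

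The 2 channels of this probe both moved with the group. The log2 sample signal was 11.76, 11.65 and 11.56 in TB-TNF KO double nodes, against 11.95, 12.01 and 12.19 in B-TNF KO nodes. These groups did not overlap, but the difference of -0.41 ± 0.09 (SE) did not pass the threshold (limma adjusted p = 0.0708). The reference channel, which held the same RNA throughout, read 9.42, 9.35 and 9.32 on TB-TNF KO double arrays, against 8.75, 8.74 and 8.94 on B-TNF KO arrays. That is a difference of 0.54 ± 0.08 (SE, limma adjusted p = 0.118) in the denominator of the ratio, with all TB-TNF KO double arrays above all B-TNF KO arrays. Before normalisation its reference intensity was 669, 697 and 611 on TB-TNF KO double arrays, against 350, 355 and 409 on B-TNF KO arrays. Its sample intensity before normalisation was 2777, 2320 and 2924 on TB-TNF KO double arrays, against 4652, 4293 and 6462 on B-TNF KO arrays. Neither channel overlapped there, and the median intensities of whole arrays, given above, also differed between the groups. The channels were scaled by quantiles and the ratio by loess, so the channel differences do not add up exactly to that of the ratio. How much of the ratio's difference came from the nodes was not tested.

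On the dimmer Lyve1 probe the log2 ratios were 2.56, 2.70 and 2.47 in TB-TNF KO double nodes, against 2.38, 2.76 and 2.60 in B-TNF KO nodes. The groups overlapped, and the lowest and the highest array both belonged to B-TNF KO. The difference was -0.03 ± 0.11 (SE, 95% interval -0.31 to 0.25, limma adjusted p = 0.925), an interval that does not reach the value of the brighter probe. Its sample channel differed by -0.09 ± 0.12 (SE) and its reference channel by -0.09 ± 0.07 (SE).

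Within each array the brighter probe exceeded the dimmer one by 0.77, 0.43 and 0.73 in log2 ratio on TB-TNF KO double arrays, against 2.00, 1.68 and 1.87 on B-TNF KO arrays. The groups did not overlap, and the difference between them was -1.19. A two-sided exact permutation test gave p = 0.1, the smallest value that 2 against 3 samples allow. The 2 Lyve1 probes were already known to disagree when this comparison was chosen, so its p-values are a description and no independent test. The same comparison in the reference channel gave 3.02, 3.16 and 2.95 on TB-TNF KO double arrays, against 2.42, 2.33 and 2.42 on B-TNF KO arrays, again without overlap. In the sample channel alone it gave 3.41, 3.36 and 3.41 in TB-TNF KO double nodes, against 3.82, 3.52 and 3.83 in B-TNF KO nodes, a difference of -0.33 (exact permutation p = 0.2). With the average trend of log ratios with G and C content removed from each array, the brighter probe's difference was -1.20 (limma adjusted p = 0.0102). Why the 2 probes disagree was not tested.

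**Figure D1:**
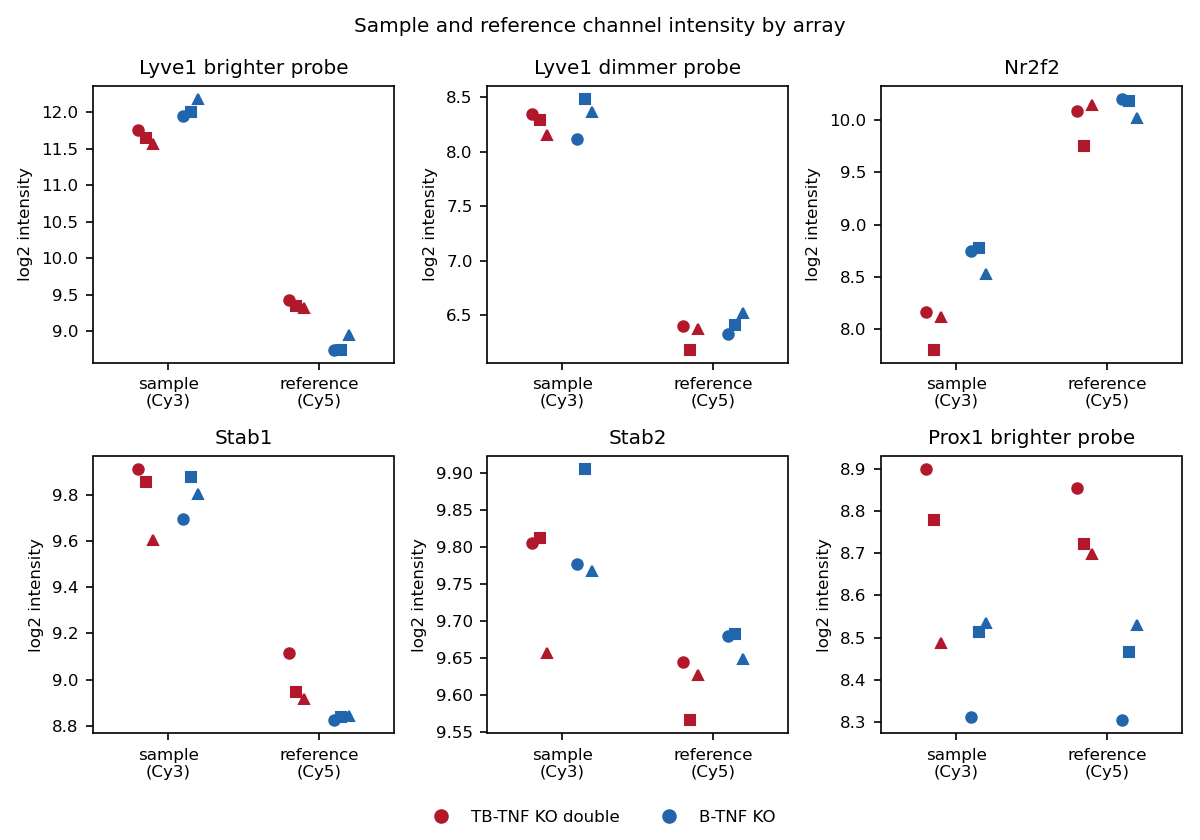
Log2 intensity (quantile-normalised, vertical axes of different range) of 6 probes in the sample channel (Cy3) and the reference channel (Cy5). Red points are TB-TNF KO double arrays and blue points B-TNF KO arrays, with circle, square and triangle for replicates 1, 2 and 3. For the brighter Lyve1 probe the red points lie below the blue ones in the sample channel and above them in the reference channel. For Nr2f2 the groups part in the sample channel and overlap in the reference channel.

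Stab1 and Stab2 encode related scavenger receptors of sinus endothelium that take up, among others, modified proteins. The log2 ratio of Stab1 was 1.68, 1.69 and 1.57 in TB-TNF KO double nodes, against 1.87, 2.06 and 1.99 in B-TNF KO nodes. All TB-TNF KO double arrays were below all B-TNF KO arrays. The difference was -0.35 ± 0.07 (SE), and it did not pass the threshold (limma adjusted p = 0.0895). With 6 arrays counted separately, which takes TB-TNF KO double arrays 1 and 2 as separate samples, it was -0.33 and passed both without a block (adjusted p = 0.0263) and with the replicate number as a block (adjusted p = 0.0294). The sample channel of Stab1 overlapped between the groups (-0.05 ± 0.10, SE), and its reference channel was 0.14 ± 0.05 (SE) higher on TB-TNF KO double arrays, with no overlap.

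Stab2 had log2 ratios of 1.07, 1.10 and 0.96 in TB-TNF KO double nodes, against 1.12, 1.27 and 1.18 in B-TNF KO nodes. The groups came close to each other without overlap, and the difference of -0.17 ± 0.07 (SE) missed the threshold (limma adjusted p = 0.285). In the sample channel the Stab2 arrays overlapped, with a difference of -0.08 ± 0.08 (SE).

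Nr2f2, a nuclear receptor that acts with Prox1 in lymphatic endothelium and also specifies veins, was the one gene of the 8 whose difference lay in the sample channel and passed there. The start of its probe, printed because the result for this gene rests on it alone, reads as follows.
Nr2f2 probe, first 30 of 60 bases: gaaacagaaggaactgtggaatttattggc
Its log2 sample signal was 8.17, 7.80 and 8.11 in TB-TNF KO double nodes, against 8.75, 8.78 and 8.53 in B-TNF KO nodes. The groups did not overlap. It fell by 0.64 ± 0.09 (SE, 95% interval of the difference -0.86 to -0.41, limma adjusted p = 0.0490), just inside the threshold. In that channel 211 probes were called lower (0.517%) and 193 higher (0.473%), with 4770 lower (11.7%) and 4415 higher (10.8%) at an unadjusted p under 0.05.

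The reference channel of Nr2f2 overlapped between groups and differed by -0.10 ± 0.09 (SE). The log2 ratio was -1.0, -1.04 and -1.11 in TB-TNF KO double nodes, against -0.53, -0.46 and -0.56 in B-TNF KO nodes, again without overlap. The ratio's difference was -0.55 ± 0.05 (SE, 95% interval -0.68 to -0.42) and just missed the threshold (limma adjusted p = 0.0550). With 6 arrays counted separately it was -0.54 and passed both without a block (adjusted p = 0.00832) and with the replicate number as a block (adjusted p = 0.0113).

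Prox1, the transcription factor that defines lymphatic endothelium, did not pass the threshold on either probe. The start of each probe is given because their differences had opposite signs.
Prox1, brighter probe: agcttggccgtgtggacttagaggaaaccc
Prox1, dimmer probe: ggatgggatgggcgttttcctttagtttac
On the brighter probe the log2 ratios were 0.88, 0.85 and 0.64 in TB-TNF KO double nodes, against 0.84, 0.92 and 0.90 in B-TNF KO nodes. The groups overlapped, with array 3 of the TB-TNF KO double group the lowest of the 6. The difference was -0.14 ± 0.08 (SE, 95% interval -0.32 to 0.05, limma adjusted p = 0.463). The sign turned in the sample channel alone, where it was 0.21 ± 0.12 (SE), while the reference channel was 0.31 ± 0.08 (SE) higher on TB-TNF KO double arrays.

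The dimmer Prox1 probe had log2 ratios of 0.52, -0.07 and 0.02 in TB-TNF KO double nodes, against -0.13, -0.08 and -0.09 in B-TNF KO nodes. Every TB-TNF KO double array was above every B-TNF KO array, but arrays 1 and 2 of the TB-TNF KO double group, near-duplicates across all probes, lay far apart on this one. The difference of 0.22 ± 0.07 (SE) did not pass (limma adjusted p = 0.196). It was 0.0714 without TB-TNF KO double replicate 1 and 0.37 without replicate 2, and passed in neither case. On TB-TNF KO double arrays 1 and 2 the log2 sample signal of this probe was 7.09 and 7.02, and its log2 reference signal 7.14 and 7.75. Between the groups its sample channel differed by 0.15 ± 0.12 (SE) and its reference channel by -0.07 ± 0.10 (SE), both with overlap.

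Flt4, the growth factor receptor, had log2 ratios of 0.15, 0.14 and 0.12 in TB-TNF KO double nodes, against 0.24, 0.27 and 0.39 in B-TNF KO nodes. The groups did not overlap. The difference was -0.17 ± 0.06 (SE), small and short of the threshold (limma adjusted p = 0.235). The sample channel of Flt4 also did not overlap and differed by -0.15 ± 0.06 (SE), and its reference channel overlapped and differed by -0.02 ± 0.08 (SE).

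Pdpn encodes podoplanin, a surface glycoprotein that lymphatic endothelium shares with reticular fibroblasts of the node. Its log2 ratios were -0.82, -0.79 and -0.92 in TB-TNF KO double nodes, against -0.93, -0.79 and -0.88 in B-TNF KO nodes. The groups overlapped, and the difference was 0.01 ± 0.06 (SE, 95% interval -0.15 to 0.16, limma adjusted p = 0.975). Both of its channels were lower on TB-TNF KO double arrays without overlap, with differences of -0.14 ± 0.06 (SE) in the sample channel and -0.16 ± 0.05 (SE) in the reference channel, and neither passed the threshold.

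Reln encodes reelin, a large secreted glycoprotein made by lymphatic endothelium. Its probes are shown because only one of them was sensitive to how the arrays were paired.
Reln, brighter probe: ctgtggccgttttactgacagtaactgcca
Reln, dimmer probe: taattttgaatcagcaagagtcactgaagc
The brighter probe had log2 ratios of 0.99, 0.73 and 0.99 in TB-TNF KO double nodes, against 1.40, 0.98 and 1.47 in B-TNF KO nodes. The groups overlapped narrowly, and in each group array 2 was the lowest. The difference was -0.36 ± 0.15 (SE, limma adjusted p = 0.314). With 6 arrays counted separately it was -0.38 and did not pass without a block (adjusted p = 0.157), and passed with the replicate number as a block (adjusted p = 0.0211). In the sample channel alone array 1 was the lowest in TB-TNF KO double nodes (7.54, 7.71 and 7.88) and array 2 in B-TNF KO nodes (8.01, 7.66 and 8.08). The sample channel of this probe differed by -0.17 ± 0.14 (SE) and its reference channel by 0.15 ± 0.08 (SE), both with overlap.

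The dimmer Reln probe had log2 ratios of 0.16, 0.13 and 0.09 in TB-TNF KO double nodes, against 0.16, 0.19 and 0.32 in B-TNF KO nodes. The groups came close to each other without overlap, at 0.16 on the nearest arrays, and the difference was -0.11 ± 0.06 (SE, limma adjusted p = 0.479). Its sample channel overlapped and differed by -0.04 ± 0.06 (SE). Its reference channel was 0.07 ± 0.06 (SE) higher on TB-TNF KO double arrays, without overlap.

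**Figure D2:**
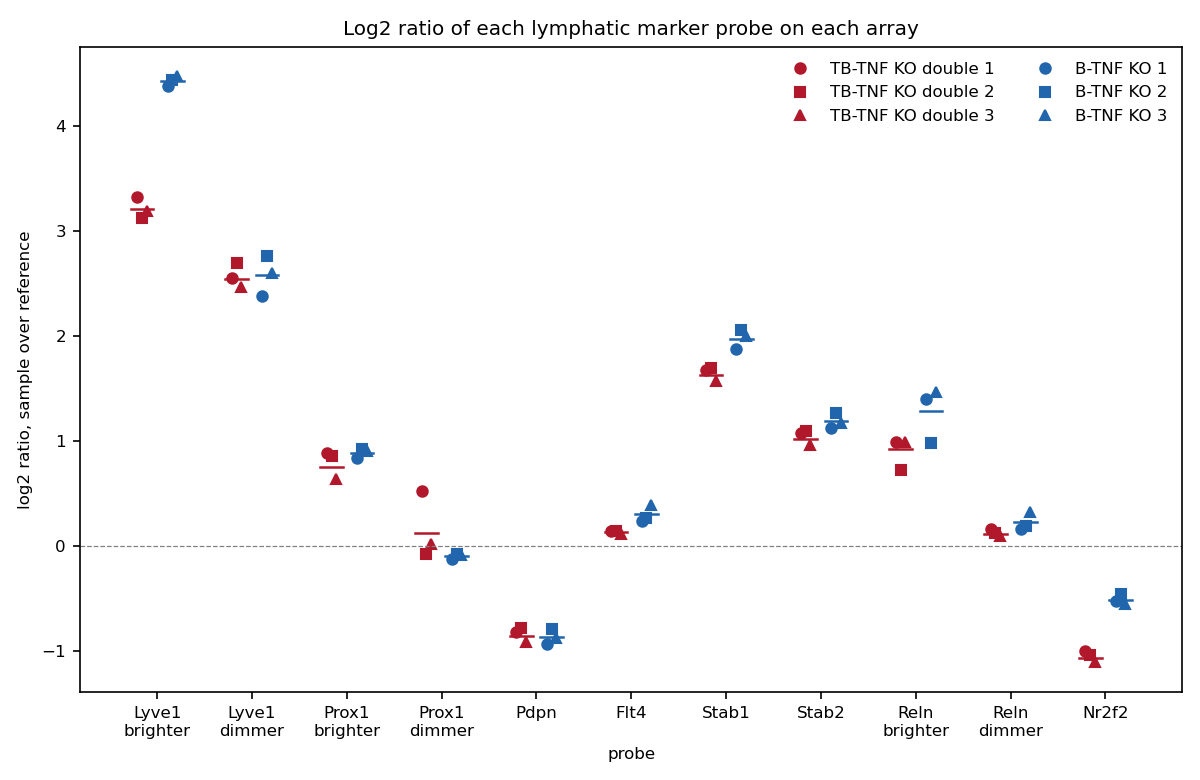
Log2 ratio of sample over reference for each of the 11 probes on each array. Red marks are TB-TNF KO double arrays, blue marks B-TNF KO arrays, and horizontal bars the group means (n = 2 after averaging TB-TNF KO double arrays 1 and 2, and n = 3). The brighter Lyve1 probe shows the widest gap, at about 3.2 against 4.4, and the dimmer Lyve1 probe none.

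Across the 11 probes, the difference in log2 ratio was below 0 for 9 and above 0 for 2, with a median of -0.17 against -0.01 over all probes tested, of which 55.0% were below 0. The arrays of the groups did not overlap for 6 probes in the lower direction, where 17.0% of all probes did so, and for 1 probe in the higher direction (10.6% of all probes). In the sample channel the median was -0.09, and 4 probes were lower without overlap (17.5% of all probes), those of Nr2f2, Flt4 and Pdpn and the brighter one of Lyve1. In the reference channel 2 were lower without overlap (19.4% of all probes) and 4 were higher (11.5% of all probes). That channel had 0 probes called in either direction by limma, with 5735 lower (14.1%) and 3628 higher (8.89%) at an unadjusted p under 0.05. With 6 arrays counted separately 3 member probes were called lower (4.58% of all probes) and 0 higher (1.46%), and with the replicate block 4 were called lower (6.21%) and 0 higher (1.81%). Those 4 were the brighter Lyve1 and Reln probes, Nr2f2 and Stab1, of which the Reln probe was not called without the block. The block fit also counts 6 arrays separately. Marker lists of other cells, described below, also held genes whose log2 ratio was lower without overlap. There were 6 of 15 for reticular fibroblasts, 4 of 13 for macrophages and 4 of 16 for blood endothelium. B cells had 4 of 9, T cells 2 of 8 and exocrine pancreas 0 of 17. In the higher direction blood endothelium had 1 and the others of these lists 0.

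**Figure D3:**
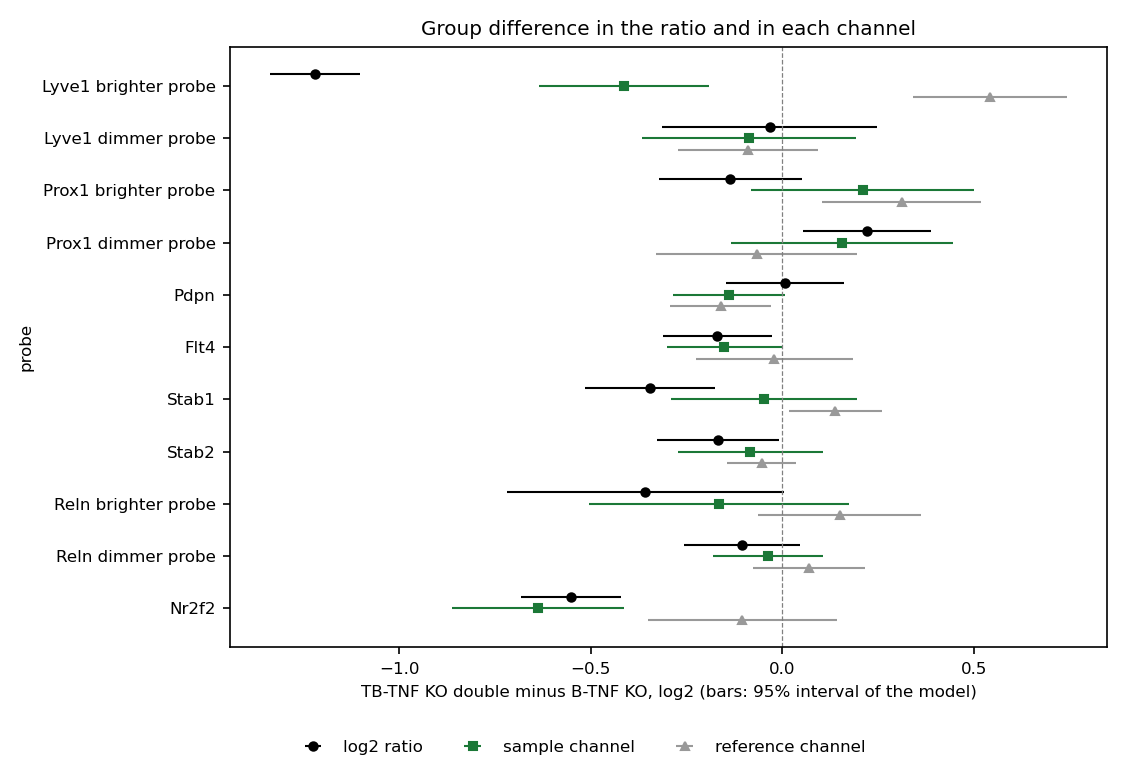
Difference TB-TNF KO double minus B-TNF KO (log2, horizontal axis) with its 95% interval for each probe, in the log2 ratio (black), the sample channel (green) and the reference channel (grey). The brighter Lyve1 probe is at -1.22 in the ratio, -0.41 in the sample channel and 0.54 in the reference channel, whereas Nr2f2 is at -0.55, -0.64 and -0.10.

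The log ratios of the brighter Lyve1 probe over the 6 arrays were closely matched by those of Tm6sf1 (Pearson r = 0.9984) and Prg4, the proteoglycan lubricin (r = 0.9982). These were chosen among 1175 named probes with an SD of at least 0.2, of which 173 had an r above 0.95. The values of this probe fall in 2 clusters by group, and any gene that separates the groups cleanly has a high r with it. Nr2f2 (r = 0.99), Stab1 (r = 0.93) and Flt4 (r = 0.89) followed the same pattern, and the dimmer Lyve1 probe did not (r = 0.03). The dimmer Lyve1 probe was most like Cdk5r2, an activator of the kinase Cdk5 (r = 0.94), Esm1, a proteoglycan secreted by endothelium (r = 0.94), and Aqp5, a water channel (r = 0.92). None of the candidates was above 0.95 for it. The brighter Prox1 probe was most like Rida (r = 0.96), Ywhaz (r = 0.92) and Ggh (r = 0.92). Each r is a description over 6 arrays that share a reference, and TB-TNF KO double arrays 1 and 2 are near-duplicates.

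Other genes of the lymphatic system were read on the probe with the highest signal of each gene. By limma on the log2 ratio, 0 genes of any of the lists below passed the threshold in either direction. The counts in these lists are to be read beside the shares over all probes tested. Of all probes, 55.0% had a difference below 0, and 11.2% were lower and 5.02% higher at an unadjusted p under 0.05. With the replicate block 6.21% were called lower and 1.81% higher, and with 6 arrays and no block 4.58% and 1.46%. Of the genes that signal for lymphatic growth, 17 of 22 were measured, with a median of -0.05 and 4 lower and 0 higher at an unadjusted p under 0.05. Clec1b, the platelet receptor for podoplanin, had log2 ratios of 2.46, 2.32 and 2.70 in TB-TNF KO double nodes, against 3.68, 2.74 and 3.57 in B-TNF KO nodes. These did not overlap, but the difference of -0.78 ± 0.29 (SE) did not pass the threshold (limma adjusted p = 0.261). Tek, a receptor for angiopoietins, differed by -0.33 ± 0.10 (SE), and Ramp2, which pairs with the receptor for adrenomedullin, by -0.30 ± 0.09 (SE). The genes of the ligands Vegfc (-0.05 ± 0.13, SE) and Vegfd (0.03 ± 0.14, SE) overlapped between the groups.

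Of the lymphatic transcription and valve genes 19 of 25 were measured, with a median of -0.10 and 6 lower and 1 higher at an unadjusted p under 0.05. Cldn11, a tight junction protein, differed by -0.51 ± 0.06 (SE, limma adjusted p = 0.0550) on its brightest probe and by 0.03 on its dimmer one. Tbx1, a transcription factor of lymphatic development, differed by -0.46 ± 0.11 (SE). Itga9, an integrin of lymphatic valves, differed by 0.32 ± 0.06 (SE) on its brightest probe and by -0.21 on its dimmer one. Probes of one gene thus disagreed in sign for both Cldn11 and Itga9.

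Of the genes of sinuses and node lymphatic endothelium 27 of 32 were measured, with a median of -0.07 and 8 lower and 3 higher at an unadjusted p under 0.05. Ackr4, a scavenging receptor for the chemokines of the CCR7 axis, had log2 ratios of 2.12, 2.07 and 2.34 in TB-TNF KO double nodes, against 2.83, 2.68 and 2.91 in B-TNF KO nodes. The groups did not overlap, and the 2 probes of Ackr4 had the same sign (-0.58 ± 0.10, SE, adjusted p = 0.0666, and -0.80, adjusted p = 0.0626). Ccl21b (0.65 ± 0.20, SE) and Ccl21a (0.53 ± 0.19, SE), near-identical chemokine genes that one probe may not separate, were saturated on all 6 arrays and differed by 0.02 and 0.05 in the sample channel. A dimmer Ccl21a probe differed by 0.16 in the ratio. In the sample channel 1 gene of this list passed the threshold: Bst1, an ectoenzyme of stromal cells, fell by 0.46 ± 0.07 (SE, limma adjusted p = 0.0490). The log2 ratio of Bst1 differed by -0.40 ± 0.06 (SE, adjusted p = 0.0570). With the replicate block, 2 genes of the growth list, 2 of the transcription and valve list and 5 of the sinus list were called lower (6.21% of all probes). In the same order 0, 1 and 2 were called higher (1.81% of all probes). With 6 arrays counted separately and no block these lists had 0, 3 and 5 genes called lower (4.58% of all probes), and 0, 1 and 0 higher (1.46%).

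Markers of other cells that carry some of these genes were read beside them. Of the macrophage markers 13 of 18 were measured, all well above background on all 6 arrays. Of these, 11 had a value below 0, as did 55.0% of all probes, and the median was -0.13. Adgre1, which encodes the F4/80 antigen, differed by -0.41 ± 0.09 (SE, limma adjusted p = 0.0975) on its brightest probe and by -0.0774 on its dimmer one. Mertk, a receptor for dying cells, differed by -0.29 ± 0.11 (SE) and Siglec1, the sinus macrophage lectin, by -0.28 ± 0.07 (SE). The summed sample intensity of the macrophage list was 106800 to 130700 in TB-TNF KO double nodes and 119900 to 139200 in B-TNF KO nodes, which overlap. At an unadjusted p under 0.05 the list had 4 genes lower and 0 higher, and with the replicate block 3 passed as lower (0 with 6 arrays and no block). The part of macrophage RNA in the Lyve1 and Stab1 values was not tested.

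Of the reticular fibroblast markers 15 of 18 were measured, all well above background on all 6 arrays. Of these, 14 had a value below 0, as did 55.0% of all probes, and the median was -0.12. The summed sample intensity of the fibroblast list was 46630 to 50880 in TB-TNF KO double nodes and 51460 to 53730 in B-TNF KO nodes, without overlap. The same held for the lymphatic growth list (11750 to 12440 against 12660 to 13650) and the transcription and valve list (10590 to 10760 against 11050 to 11330). The sinus list overlapped (198500 to 219700 against 198600 to 217600). How often a gene list parts the groups in this way was not tested. At an unadjusted p under 0.05 the list had 4 genes lower and 0 higher, and with the replicate block 3 passed as lower (1 with 6 arrays and no block). Il7, the survival cytokine of lymphocytes, differed by -0.40 ± 0.06 (SE, limma adjusted p = 0.0616), Pdgfra by -0.20 ± 0.08 (SE) and Pdgfrb by -0.15 ± 0.06 (SE, -0.0805 on its dimmer probe), the last 2 being growth factor receptors of stroma. The part of fibroblast RNA in the Nr2f2 and Pdpn values was not tested. Of the blood endothelial markers 16 of 20 were measured with a median of -0.03, 4 lower and 1 higher at an unadjusted p under 0.05, and 2 lower with the replicate block (0 with 6 arrays and no block). Their summed sample intensity overlapped, at 80890 to 103500 in TB-TNF KO double nodes and 81280 to 109700 in B-TNF KO nodes. Among them Cldn5, a tight junction protein, differed by -0.39 ± 0.11 (SE) and Robo4, a guidance receptor of vessels, by -0.38 ± 0.06 (SE, limma adjusted p = 0.0605). In the sample channel Cldn5 differed by 0.04 and Robo4 by -0.17. Of the 16 blood endothelial genes 11 had a log2 ratio difference below 0 and 5 above 0. Esam was 0.12 higher in TB-TNF KO double nodes without overlap.

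Markers of tissue that lies next to mesenteric nodes were uneven between pools. The summed sample intensity of the 17 measured exocrine pancreas markers, of 27 listed, was 418500, 420100 and 5359 in TB-TNF KO double pools, against 120000, 335900 and 5173 in B-TNF KO pools. Pools 1 and 2 were high and pool 3 low in both groups. The brighter Lyve1 probe had log2 ratios of 3.19 in the low TB-TNF KO double pool and 4.47 in the low B-TNF KO pool. On pools 1 and 2 alone it differed by -1.18, which did not pass the threshold (limma adjusted p = 0.366). At an unadjusted p under 0.05, 0 pancreas markers differed (median -0.22). The medians of the other lists were -0.04 for liver (9 of 12 measured), -0.02 for adipocytes (11 of 12), 0.03 for mesothelium (8 of 10), -0.08 for B cells (9 of 10) and -0.08 for T cells (8 of 10). At an unadjusted p under 0.05 these had 1, 0, 1, 3 and 2 genes lower, and 1 mesothelial gene higher. With the replicate block 1 liver, 1 mesothelial and 3 B cell genes were called lower and 1 mesothelial gene higher, against 1, 1 and 2 lower and 0 higher with 6 arrays and no block. Among B cell genes Blk, a kinase of the B cell receptor path, differed by -0.51 ± 0.09 (SE, limma adjusted p = 0.0734) on its brightest probe and by -0.0874 on its dimmer one. Cd79a, a part of that receptor, differed by -0.42 ± 0.08 (SE, adjusted p = 0.0744) and by -0.31 on its dimmer probe, and Cd37, a surface protein of B cells, differed by -0.32 ± 0.11 (SE). Of the 9 B cell genes 6 were below 0 and 3 above 0, namely Cd22 (0.12), Cd79b (0.05) and Ms4a1 (0.03). In the sample channel the median of the B cell list was 0.05. There Blk, Cd79a and Cd37 differed by -0.47, -0.34 and -0.08.

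The difference of the brighter Lyve1 probe was below 0 under all 24 alternative settings, at -1.30 to -0.41, and passed the threshold under 17. It did not pass without TB-TNF KO double replicate 3 (-1.20, adjusted p = 0.0839), without B-TNF KO replicate 2 (-1.22, adjusted p = 0.0916) or without TB-TNF KO double arrays 1 and 2 (-1.24, adjusted p = 0.282). Nr2f2 was below 0 under all 24, at -0.64 to -0.28, and passed under 6. Stab1 was below 0 under all 24, at -0.40 to -0.05, and passed under 2.

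**Figure D4:**
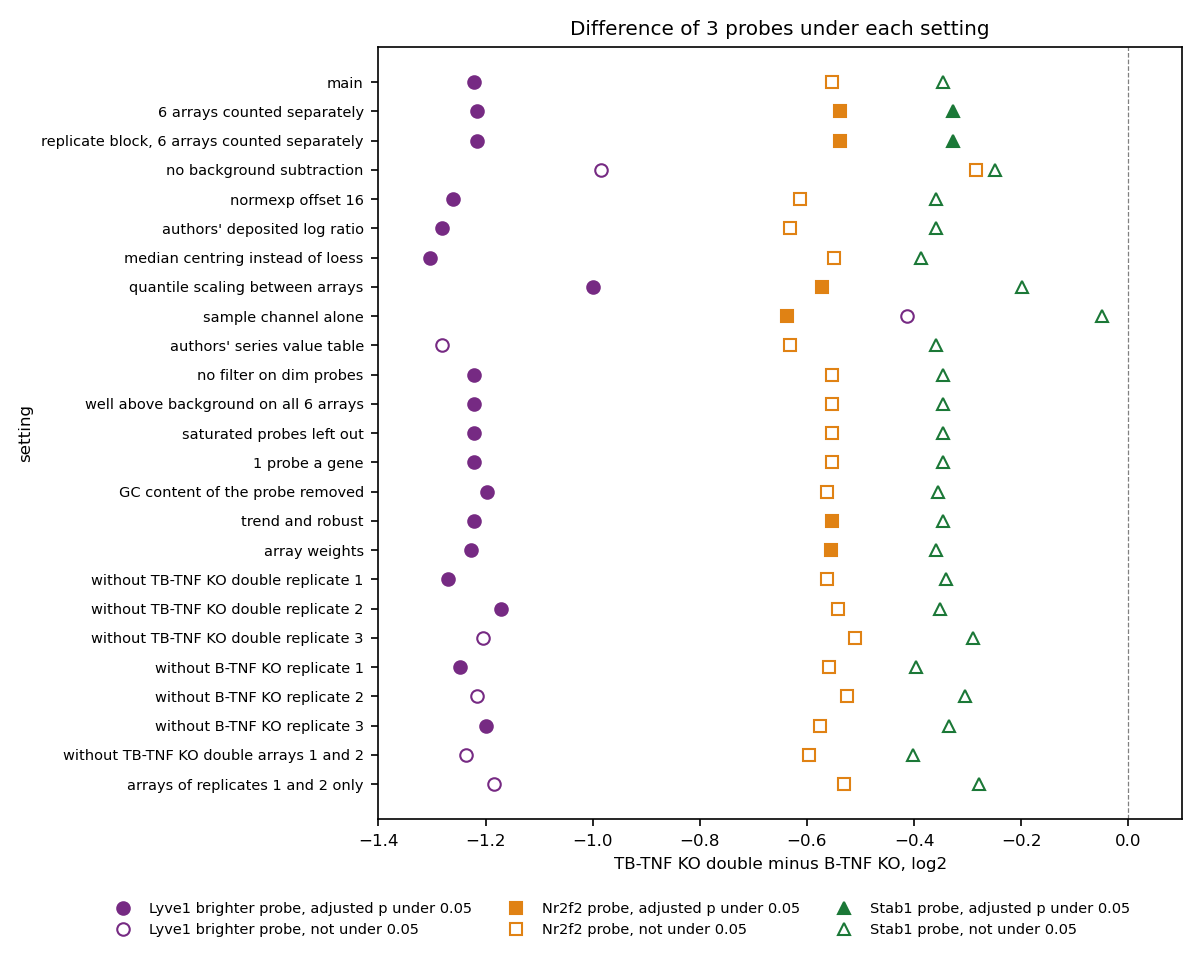
Difference TB-TNF KO double minus B-TNF KO (log2, horizontal axis) of the brighter Lyve1 probe (purple), Nr2f2 (orange) and Stab1 (green) under the reported setting (top) and each of 24 alternatives (rows). Filled marks have an adjusted p under 0.05. The Lyve1 marks lie between -1.30 and -0.99 except for the sample channel alone, at -0.41.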

How the data were processed

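Spots were read from the scanner files, for which the authors used Agilent Feature Extraction A.7.5.1, per the file headers. These deposited files give the intensity of each spot and of its local background in both channels, in arbitrary units, and the log10 of the red over the green channel. A deposited series table holds log10 values per probe. The series table's scaling and centring stay unknown. Genome builds are not given in the sources used here.

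With limma 3.58.1 in R 4.3.3, intensities were corrected by normexp (offset 50) and each array was normalised by loess, with control spots at weight 0 and 228 outlier spots left out. Probes were named by matching 15303 of 41034 spots to RefSeq accessions of GRCm38.p6, used for names only. Probes had to exceed background in the sample channel on 3 arrays or more to be tested (95.9% to 99.6% of probes did so per array). Differences are TB-TNF KO double minus B-TNF KO with the model's SE, from lmFit and eBayes. Single channels were quantile-normalised. The number of arrays limits the precision, and only the labels say that pools were separate, so p-values may measure technical spread.

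Members, lists and tests were chosen with earlier results of these data known. The genes named are all member probes and, of each of 12 gene lists, any gene past the threshold or else the 3 that differ most without overlap between groups. For the liver, adipocyte, mesothelial and T cell lists counts and the median are given in place of names. Vegfc, Vegfd, Bst1, Esam, Cd22, Cd79b and Ms4a1 were named outside this rule, after their values were seen. Likeness was ranked by Pearson's r. One gene that this ranking took is not reported here. Same-numbered arrays deviated together (r = 0.13, 0.53 and 0.62), so the replicate number was also fitted as a block, although TB-TNF KO double array 1 correlated best with B-TNF KO array 2 (r = 0.43). Alternatives covered background, scaling, channels, the authors' values, filters, probe handling, spread model, weights and left-out arrays. On simulated data with 40646 probes and 2 against 3 samples, 85 of 100 probes changed by 1 and 51 of 100 changed by 0.5 (log2) were found, with 6 false calls. The simulated noise was normal and independent between arrays, with no shift by day or in the reference channel. More probes were called there than in the real data, which makes the adjusted threshold easier to pass. These rates therefore need not hold for the real arrays. Plots were made in Python 3.11.15 with matplotlib 3.10.9.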

Additional observations from a re-analysis of the deposited data

How the results depend on the processing

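The number of probes called lower was 6 and moved to 1868 with 6 arrays counted separately, 2534 with the replicate block, 0 without background subtraction, 3 with an offset of 16, 1 with the authors' deposited log ratio, 226 with quantile scaling, 211 in the sample channel alone, 0 in the authors' series table, 409 with a trended robust prior and 311 with array weights. It was 0 to 5 with each replicate left out, 0 without TB-TNF KO double arrays 1 and 2, and 0 on the arrays of replicates 1 and 2, the last 2 settings being chosen after seeing the data. The number called higher was 0 and moved to 597, 738, 108, 193, 148 and 97 with 6 arrays, the block, quantile scaling, the sample channel, the trended prior and weights. The median of the 11 probes was -0.17 and moved to -0.0666 without background subtraction, -0.0869 in the sample channel and -0.26 with 1 probe a gene. With 6 arrays counted separately Nr2f2 and Stab1 passed without any block. Against that fit the block changed the call of the brighter Reln probe (-0.38) and of no other member probe.

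The brighter Lyve1 probe also missed the threshold without background subtraction (-0.99, adjusted p = 0.0597), in the authors' series table (-1.28, adjusted p = 0.0593) and on replicates 1 and 2 only (-1.18, adjusted p = 0.366). Nr2f2 also passed with quantile scaling (-0.57), the trended prior (-0.55) and weights (-0.55). Values near 0 changed sign without a call. For the dimmer Lyve1 probe (-0.03) this gave 0.0195 with an offset of 16, 0.0828 with the authors' ratio, 0.0455 with median centring, 0.0453 in the series table, 0.0562 on replicates 1 and 2, and -0.132 to 0.0558 with each replicate left out. For Pdpn (0.01) it gave -0.0179 with an offset of 16, -0.0396 with the authors' ratio and in the series table, -0.0017 with quantile scaling, -0.139 in the sample channel, -0.0019 with weights, -0.0523 without TB-TNF KO double arrays 1 and 2, and -0.0264 to 0.0654 with each replicate left out. The brighter Prox1 probe gave 0.21 in the sample channel. The causes were not tested. Settings that left 1 TB-TNF KO double sample assume that it varies like the B-TNF KO samples. The offset of 50 shrinks differences of dim probes such as that of Flt4, whose background-subtracted sample intensity was 36.8 to 61.9. A fit with the extraction day as a block was not run, since day and group cannot be told apart.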
